A study of Drosophila melanogaster with 15 samples.

Results

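The comparison described here sets the transcripts of the larval central nervous system (CNS) of Drosophila melanogaster with RNAi against ATPsynCf6 in neurons beside those of larvae without an RNAi construct. ATPsynCf6 encodes coupling factor 6, a subunit of the mitochondrial ATP synthase (complex V). The arrays were chosen by their titles alone: the 3 labelled ATPsynCf6 RNAi (genotype nsybGal4/ATPsynCf6 RNAi, RNAi line 107826) and the 3 labelled control CNS tissue (nsybGal4/+, written nSyb-Gal4/w in the series' design). They are 6 of 15 arrays. The remaining 9 arrays, 3 for each target, carried RNAi against a subunit of complex I (ND-75), complex III (UQCR-14) or complex IV (COX5B), each from 1 line, by their labels. All 5 groups shared the nSyb-Gal4 driver, which is active in neurons, so glia, neuroblasts and other cells of the tissue did not express the RNAi construct through it. Each sample held the whole CNS of 15 wandering larvae of the third instar, kept at 25 °C. The arrays were made from 10 ng of amplified RNA. A single RNAi line was used and no group carried RNAi against an unrelated gene, so the gene knocked down and the line used cannot be told apart.

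The ATP synthase lets protons flow back across the inner mitochondrial membrane and uses that flow to make ATP. The respiratory complexes I, III and IV build up the proton gradient that drives it. When mitochondria fail, cells are known to switch on nuclear genes for glycolysis, chaperones and amino acid synthesis, in part through the transcription factor ATF4 (crc in flies), and neurons, which spend much ATP on signalling, are considered sensitive to such failure.

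The values were MAS5 signals, 1 per probe set and array, and all changes below are differences of log2(signal + 16), which understate the change of dim genes. A probe set was tested where at least 3 of the 15 arrays exceeded their own median signal, which left 10340 probe sets for 7947 genes. Median signals were 34.1 to 36.5 in the 3 arrays labelled ATPsynCf6 RNAi, against 31.8 and 31.0 in control 1 and 2 and 45.6 in control 3. Control 3 stood apart: it correlated at 0.904 to 0.919 with the ATPsynCf6-labelled arrays and at 0.903 with the other controls, which correlated with each other at 0.989. It was 1 of 5 arrays of the series with a low upper quartile. The others were ND-75 RNAi array 3, UQCR-14 RNAi array 3 and COX5B RNAi arrays 1 and 3. Tests used limma with array weights, which were 3.82 to 4.78 in the ATPsynCf6-labelled arrays, and 5.21, 3.25 and 0.209 in control 1, 2 and 3. The control level in the tests therefore came almost wholly from control 1 and 2.

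ATPsynCF6, as the array's annotation spells the targeted gene, was not lower in the arrays labelled for its RNAi. Its single tested probe set had signals of 3585, 2828 and 3285 in the ATPsynCf6-labelled arrays, against 3108, 3003 and 3579 in control. The groups overlapped. The difference was 0.05 (standard error, SE, 0.12), with a 95% interval of -0.20 to 0.30 and an adjusted p of 0.869. This measurement goes against the label: the arrays are called by their labels below, and each direction given rests on those labels. The labels give no measurement of the protein, and whether the probe set can see transcripts cut by RNAi was not tested. The samples were whole CNS, so transcripts of cells without the driver also enter the value, and their part was not tested. Of 12 measured ATP synthase subunits, 0 passed the test, and their median difference was 0.07. Examples are ATPsynbeta, a catalytic subunit, at 0.17 (adjusted p = 0.552), and ATPsyngamma, of the rotating stalk, at 0.20 (adjusted p = 0.593). The median of the subunits was -0.10 without control 1, -0.23 without control 2 and -0.05 without array weights.

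Transcripts of a heat shock protein, a sugar transporter, 5 of 10 glycolytic genes, both Arc genes and 8 of 25 glutathione transferases were higher in the ATPsynCf6-labelled arrays than in control, and a kainate receptor, a SNARE gene and a gene of heparan sulfate synthesis were lower. Over all probe sets, 715 of 10340 passed at an adjusted p under 0.05 (6.91%), of which 422 rose (4.08%) and 293 fell (2.83%). The 3 arrays of one group lay wholly above or below the 3 of the other in 925 probe sets that were higher (8.95%) and 647 that were lower (6.26%) in the ATPsynCf6-labelled arrays. Among these, 297 rose (2.87%) and 152 fell (1.47%) by the test. The median change of all tested probe sets was 0.00. The calls depended on the weights and on 2 controls: 2 probe sets passed without array weights (134 at an unadjusted p under 0.05), 5 without control 1 and 8 without control 2, against 755 without control 3. Dropping the 5 arrays with a low upper quartile left 10 arrays, called the 10 arrays below and fitted without weights. In them, 333 passed, and 313 of these were among the 715 with the same sign. Without control 1 that count was 65, and without control 2 it was 165. Of the 715, 663 kept their direction without control 1 and 691 without control 2. In these fits control 3 entered the control level almost equally with the other control left, whereas its weight was 0.209 with all arrays. Values given below without control 1 or control 2 therefore also carry a larger part of control 3. In the 10 arrays, which lack control 3, all 715 kept their direction without control 1 and also without control 2. The 715 were called with control levels that came almost wholly from control 1 and control 2. This agreement was therefore close to fixed in advance and is no separate test of direction. The naming rule given with the processing chose 80 probe sets that passed, PH4alphaSG1 among them. Some genes named below, such as Tpi, are not counted in the 80, and not all of the 80 are described. Of the 80, 3 (Hsc70-2, CG15784 and CG5079) also passed without control 1, and 5 (these with Tret1-1 and GstD2) without control 2. Every other one of these calls ended both without control 1 and without control 2. In these bulk samples, fewer cells of a type and less RNA per cell cannot be told apart.

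**Figure D1:**
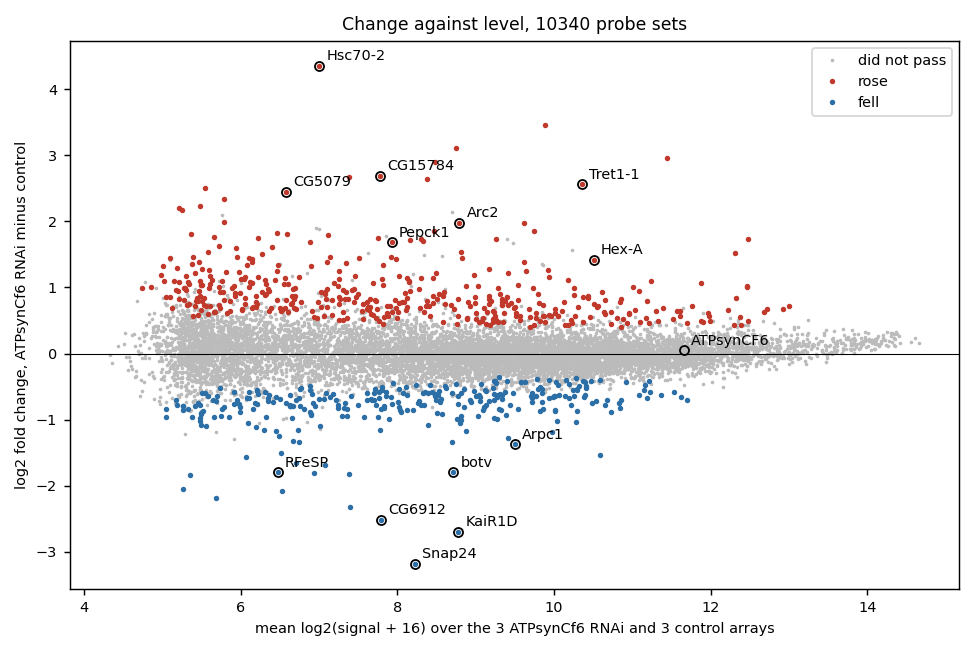
Log2 fold change (ATPsynCf6 RNAi minus control) against the mean log2(signal + 16) of the 6 arrays, 1 point a probe set; red points rose, blue points fell and grey points did not pass. Hsc70-2 lies highest at 4.35 and Snap24 lowest at -3.18, while the targeted gene ATPsynCF6 lies at 0.05.

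Among genes of protein folding, Hsc70-2, a member of the Hsp70 chaperone family, had the largest rise of all probe sets with 1 gene symbol. Its signals were 575, 493 and 484 in the ATPsynCf6-labelled arrays, against 10.9, 7.14 and 32.3 in control. The control arrays all lay below their median signal, so the change of 4.35 (SE 0.18, adjusted p = 4.74e-11) has no exact size; it was 2.96 to 5.60 over the other settings tried. The rest of the cytosolic heat shock list did not pass: 1 of 8 measured members rose, 0 fell and the median was 0.04. Examples are stv, a co-chaperone, at 0.40 (adjusted p = 0.241), and Hsc70-4, the abundant constitutive Hsp70, at 0.28 (adjusted p = 0.515). Among 12 genes listed as mitochondrial chaperones and proteases, 3 rose and 0 fell, with a median of 0.31. The 3 include Tspo, which is neither a chaperone nor a protease. Over all genes, taking the brightest probe set of each, 299 of 7947 rose (3.76%), 217 fell (2.73%) and the median was -0.00495.

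The 3 mitochondrial genes that rose were Hsc70-5, the mitochondrial Hsp70, Afg3l2, a protease of the inner membrane, and Tspo, a protein of the outer membrane. Hsc70-5 had 3270, 3153 and 3194 in the ATPsynCf6-labelled arrays, against 2255, 2364 and 1602 in control, a rise of 0.49 (SE 0.12, adjusted p = 0.0153). Afg3l2 had 4258, 4701 and 4681, against 3222, 3355 and 3079 in control, a rise of 0.48 (SE 0.11, adjusted p = 0.0102). For both genes, every ATPsynCf6-labelled array exceeded every control array. Tspo overlapped: it had 2944, 2670 and 2734, against 1616, 1722 and 5985 in control, and its rise of 0.69 (adjusted p = 0.049) became -0.21 without control 1 and -0.17 without control 2. In the 10 arrays, Hsc70-5 was at 0.47 (adjusted p = 0.0582) and Afg3l2 at 0.46 (adjusted p = 0.0717), and Tspo passed. No mitochondrial chaperone or protease passed without control 1 or control 2.

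CG15784, a gene placed in the ATF4 list, had 438, 623 and 548 in the ATPsynCf6-labelled arrays, against 65.1, 77.1 and 73.7 in control. The groups were far apart and the controls, including control 3, lay close together. Its rise was 2.69 (SE 0.15, adjusted p = 2.06e-09), and it passed without any single one of the 15 arrays. AsnS, which makes asparagine, had 931, 839 and 796, against 496, 509 and 558 in control, a rise of 0.74 (SE 0.13, adjusted p = 0.0018). JhI-21, an amino acid transporter subunit, rose by 0.83 (SE 0.13, adjusted p = 0.000447), with 2420, 2609 and 2599, against 1366, 1563 and 1100 in control. All 3 genes showed no overlap. Gadd45, a stress response gene, had 59.6, 64.4 and 57.5, against 34.2, 7.14 and 10.6 in control, and rose by 1.05 (adjusted p = 0.0284).

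Of 24 measured members of the ATF4 and integrated stress response list, these 4 rose, 0 fell and 20 did not pass, and the median was 0.20. The transcript of crc, the fly ATF4, was at 0.07 (adjusted p = 0.856), and the kinases PEK and Gcn2 that act upstream of it were at 0.27 and 0.20. Sesn, a sestrin, was at -0.42 (adjusted p = 0.195). Without control 1 or control 2, only CG15784 of the list passed, and the list's median was 0.41 and 0.44. In serine, glycine and one-carbon metabolism, 2 of 11 members rose and 0 fell (median 0.24). Gnmt, which uses methyl groups from S-adenosylmethionine, varied within both groups, with 222, 49.4 and 25.2 against 3.04, 3.64 and 106 in control (1.99, SE 0.47, adjusted p = 0.0139). Its arrays ran in the same order within each group as those of the fat body gene Lsp2, described below. Sam-S, which makes S-adenosylmethionine, rose by 0.43 (SE 0.12, adjusted p = 0.0334). Neither passed in the 10 arrays, and the list's median turned to -0.16 without control 1 and -0.06 without control 2.

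Of 7 measured genes of trehalose and glycogen handling, 3 rose, 1 fell and 3 did not pass, and the median was 0.51. Tret1-1, which carries trehalose, the main blood sugar of insects, across membranes, had 2733, 3514 and 3038 in the ATPsynCf6-labelled arrays, against 414, 716 and 520 in control. The lowest ATPsynCf6-labelled array was far above the highest control. Tret1-1 rose by 2.56 (SE 0.20, adjusted p = 1.38e-07). Treh, which splits trehalose into glucose, had 2225, 2243 and 2153, against 1308, 1677 and 932 in control, a rise of 0.63 (SE 0.15, adjusted p = 0.0136). Glys, glycogen synthase, rose by 0.46 (adjusted p = 0.0499), with 4600, 4172 and 4293, against 3113, 3350 and 1504 in control.

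Glut1, a glucose transporter, was listed as fallen and overlapped. It had 674, 783 and 991 in the ATPsynCf6-labelled arrays, against 1459, 1716 and 373 in control, where control 3 was the lowest of the 6 arrays. The change was -0.87 (SE 0.19, adjusted p = 0.00964) and became 0.02 without control 1 and 0.13 without control 2. A second, dim probe set of Glut1 was at -0.45 (adjusted p = 0.133). The 3 genes of the list that did not pass were Tret1-2, a second trehalose transporter, at 0.22, Glyp, glycogen phosphorylase, at 0.51, and UGP, which makes UDP-glucose, at 0.71. Tret1-1 alone passed without control 2, and no member passed without control 1.

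Of 10 glycolytic genes, 5 rose and 0 fell, with a median of 0.54. Hex-A, the hexokinase that starts glycolysis, had 2154, 2706 and 2809 in the ATPsynCf6-labelled arrays, against 884, 1100 and 556 in control. All 3 were above all controls, and the rise was 1.42 (SE 0.14, adjusted p = 2.72e-06). Ald1, aldolase, had 7281, 7850 and 8664, against 3522, 4760 and 3831 in control, a rise of 1.01 (SE 0.14, adjusted p = 0.000149). Its second probe set rose by 0.72 (adjusted p = 0.00682). Pfk, phosphofructokinase, the main control point of the pathway, had 2093, 1984 and 1930, against 1082, 1465 and 861 in control, a rise of 0.72 (SE 0.15, adjusted p = 0.00529). Pgi, phosphoglucose isomerase, had 6206, 6808 and 6788, against 4093, 4558 and 2130 in control, a rise of 0.66 (SE 0.13, adjusted p = 0.00393). These 4 genes did not overlap between the groups.

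Tpi, triosephosphate isomerase, was the remaining gene of the pathway that rose, by 0.62 (adjusted p = 0.0284), with 4746, 4070 and 4109 against 2500, 3096 and 6483 in control. Its signal in control 3 was above the ATPsynCf6-labelled arrays. The genes further down the pathway did not pass: Gapdh1 was at 0.46 (adjusted p = 0.0894), Eno at 0.29, Pgk at 0.29 and Pglym78 at 0.11. The same 5 genes passed in the 10 arrays. No glycolytic gene passed without control 1 or control 2, where the list's median was 0.15 and 0.13. At the ends of glycolysis, Mpc1, of the mitochondrial pyruvate carrier, was at 0.18 (adjusted p = 0.49), and Pdk, which switches off pyruvate dehydrogenase, at 0.07 (adjusted p = 0.852).

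**Figure D2:**
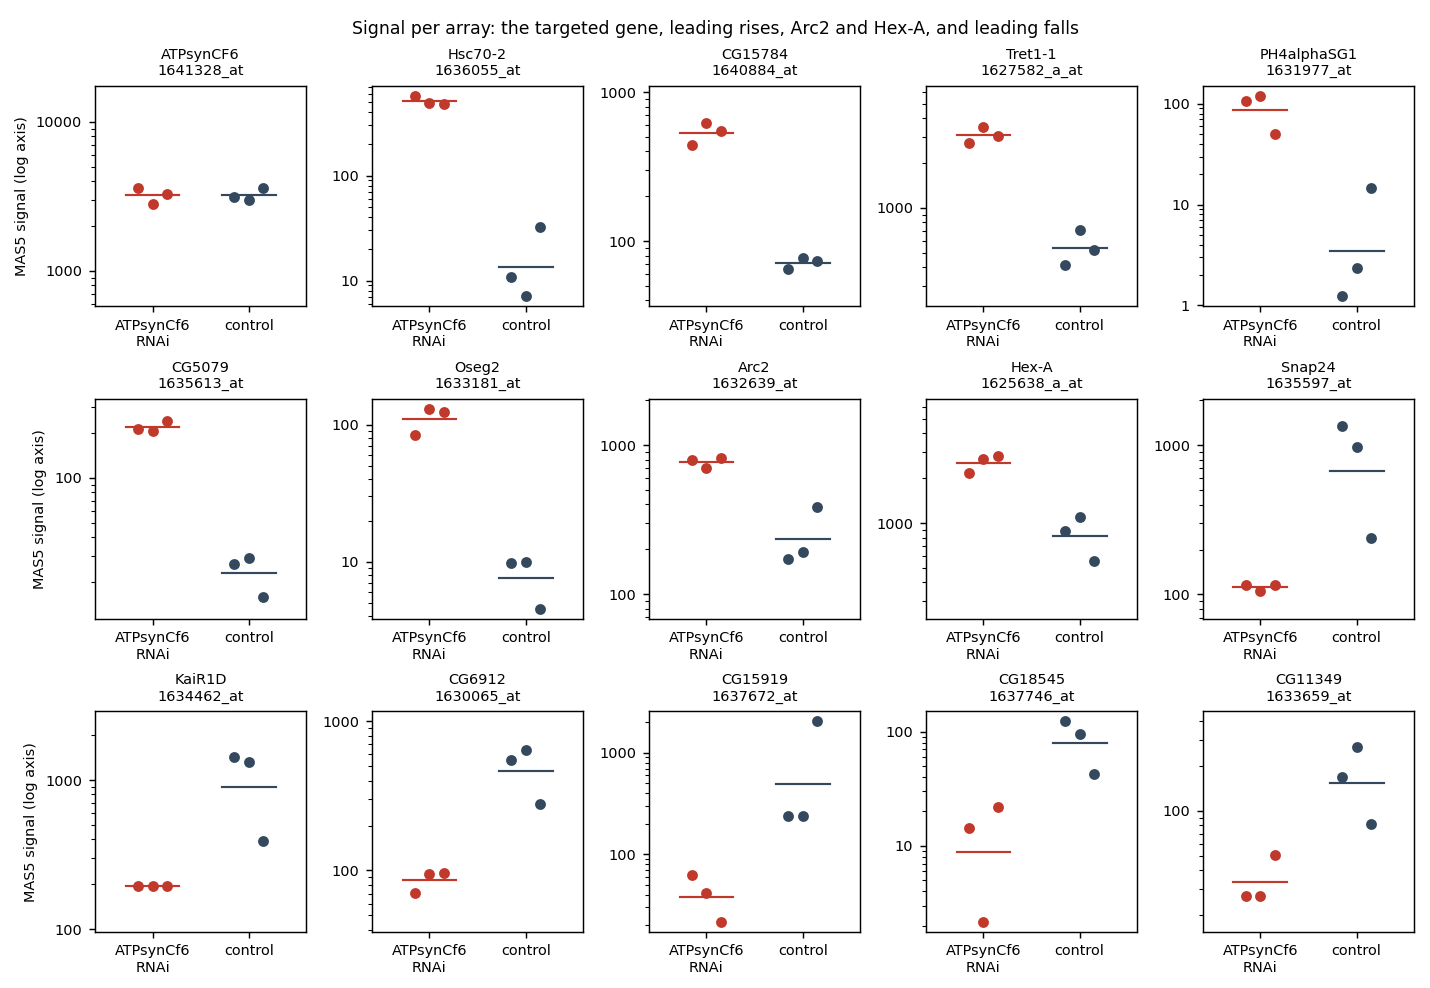
MAS5 signal (log axes, a separate range for each gene) in the 3 arrays labelled ATPsynCf6 RNAi (red, left) and the 3 control arrays (dark, right) for the targeted gene ATPsynCF6, leading rises, Arc2 and Hex-A, and leading falls; points of a group run from array 1 to 3 and lines are geometric means. ATPsynCF6 overlaps between the groups, and in the other 14 panels the groups do not overlap.

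Pepck1, phosphoenolpyruvate carboxykinase, the entry enzyme of glucose synthesis, had 369, 391 and 491 in the ATPsynCf6-labelled arrays, against 96.0, 167 and 112 in control. No array overlapped, and the rise was 1.68 (SE 0.18, adjusted p = 1.01e-05). It was the 1 member of 5 in the glucose synthesis list that passed; its paralogue Pepck2 was at -0.38 (adjusted p = 0.304), and G6P, glucose-6-phosphatase, at 0.08. In the tricarboxylic acid (TCA) cycle list, 3 of 16 members rose, 0 fell, 15 of 16 were above 0 and the median was 0.24. Idh3g, a subunit of isocitrate dehydrogenase, had 780, 884 and 810, against 434, 525 and 243 in control, a rise of 0.82 (SE 0.15, adjusted p = 0.00261). Got2, the mitochondrial aspartate aminotransferase, rose by 0.52 (SE 0.11, adjusted p = 0.0074), and D2hgdh, which oxidises D-2-hydroxyglutarate, by 0.78 (SE 0.19, adjusted p = 0.0147). The groups did not overlap in these 3 genes. No gene of these lists passed without control 1 or control 2, where the TCA median was 0.35 and 0.43.

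Subunits of the respiratory chain stayed close to control in the weighted fit. Of 27 subunits of complex I, 0 passed (median -0.03), of 3 of complex II, 0 (median 0.09), and of 7 of complex III, 0 (median 0.08). The 2 complex I members with the smallest p were ND-B8 at -0.23 (adjusted p = 0.605) and ND-51 at 0.13 (adjusted p = 0.692). Control 3 moved these medians: without array weights they were -0.39, -0.15 and -0.22, and the sum of complex I signals was 77591 to 83690 in the ATPsynCf6-labelled arrays and reached 215287 in a control. Of 10 genes of complex IV and cytochrome c, 1 rose. It was COX7AL, a COX7A-like gene, which had 118, 97.5 and 79.7, against 33.6, 17.5 and 36.1 in control (1.38, SE 0.19, adjusted p = 0.00013). The groups did not overlap, but the controls were near or below their median signals.

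Within complex III, RFeSP, the Rieske iron-sulfur protein, gave different values by probe set. A dim probe set of RFeSP had 36.1, 31.6 and 30.1 in the ATPsynCf6-labelled arrays, against 138, 179 and 128 in control, a fall of 1.80 (SE 0.16, adjusted p = 1.03e-06). A bright probe set was at 0.08 (adjusted p = 0.867). No direction can be given for the gene. Among 9 carriers and enzymes that handle adenylates, Adk3, an adenylate kinase, fell by 0.65 (SE 0.12, adjusted p = 0.00208), with 787, 680 and 711 against 1110, 1208 and 793 in control. Its groups were separated by a narrow gap. None of 69 mitochondrial ribosomal proteins passed (median 0.03), nor of 15 genes of mitochondrial dynamics and biogenesis (median 0.06), nor of 7 genes of the hypoxia pathway (median 0.11). Without control 1 and without control 2 these medians were -0.52 and -0.47 for the ribosomal proteins, 0.29 and 0.34 for dynamics and biogenesis, and 0.44 and 0.44 for the hypoxia pathway.

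Glutathione S-transferases, which attach glutathione to toxic compounds, rose more often than they fell: of 25 measured, 8 rose and 1 fell, and the median was 0.16. Over all genes, 3.76% rose and 2.73% fell. All ATPsynCf6-labelled arrays lay above all controls in 6 members and below them in 3. Over all probe sets these shares were 8.95% and 6.26%. GstD2 had 283, 218 and 304 in the ATPsynCf6-labelled arrays, against 63.7, 72.0 and 28.6 in control, a rise of 1.79 (SE 0.15, adjusted p = 4.63e-07). GstE1 had 1373, 1295 and 1235, against 243, 557 and 1191 in control, where control 3 lay just below the ATPsynCf6-labelled arrays (1.86, SE 0.26, adjusted p = 0.000139). GstE6 rose by 0.97 (SE 0.20, adjusted p = 0.00491) and GstE3 by 0.82 (SE 0.18, adjusted p = 0.00739). Another 4, chosen for mention after their values were seen, were GstE9 (0.69), GstO1 (0.61), GstE2 (0.59) and GstO3 (0.55), of which GstO1 and GstO3 overlapped with control 3. GstZ2, of the zeta class that acts in tyrosine breakdown, fell by 0.50 (adjusted p = 0.0485). In the 10 arrays, 3 rose and 0 fell. Without control 2, GstD2 alone passed and the median was -0.05, and without control 1 no member passed and the median was -0.08.

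Of 11 measured cytochrome P450 genes, 1 rose: Cyp9b2 had 92.3, 64.3 and 53.2, against 17.1, 22.8 and 24.8 in control (1.23, SE 0.19, adjusted p = 0.000502), and all its controls lay below their medians. Among 13 antioxidant genes, Sod3, an extracellular superoxide dismutase, rose by 0.62 (adjusted p = 0.0152) and cnc, the fly Nrf2 transcription factor, fell by 0.66 (adjusted p = 0.019). Both overlapped. Sod3 had 647, 506 and 522, against 324, 384 and 699 in control, and cnc had 1390, 1114 and 1072, against 1766, 2116 and 866 in control. A second probe set of Sod3 was at -0.01. Without control 1, Cyp9b2 was at 1.06, Sod3 at 0.08 and cnc at -0.21, none past the threshold.

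**Figure D3:**
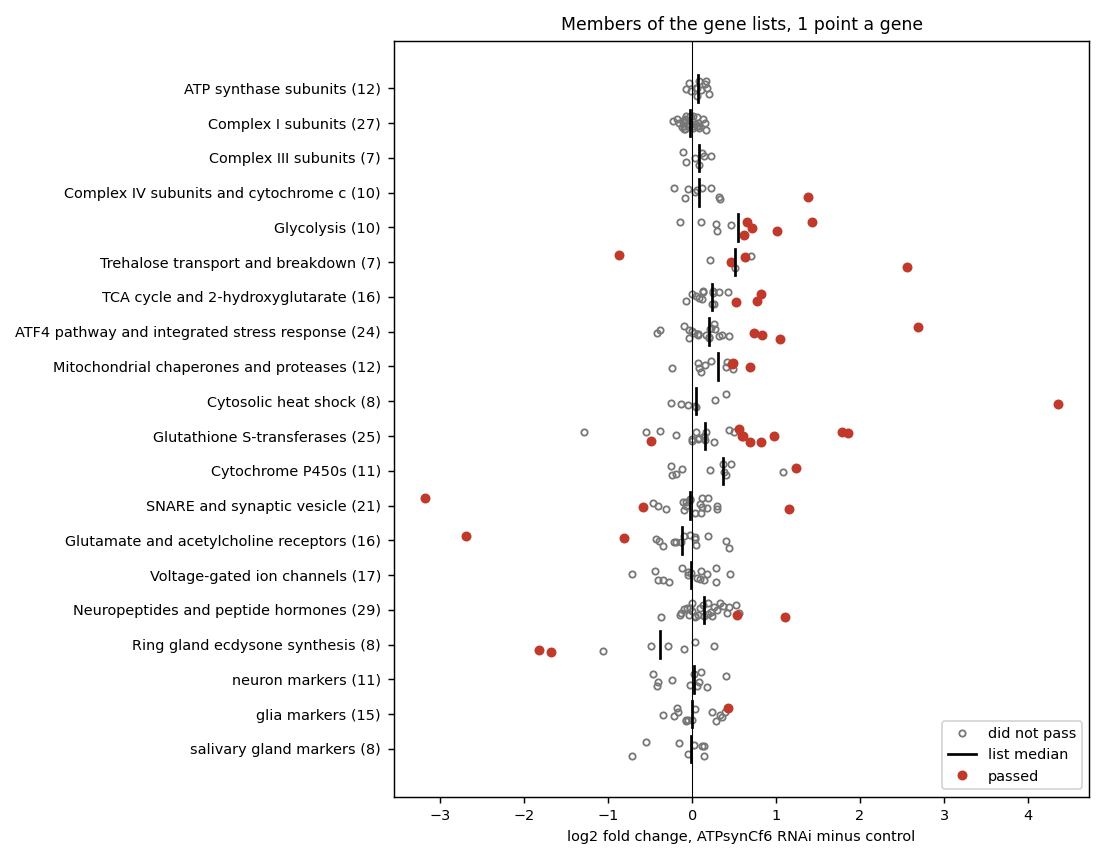
Log2 fold change (ATPsynCf6 RNAi minus control) of the measured members of 20 gene lists, 1 point a gene at its brightest probe set, with the number measured in parentheses; filled red points passed the test, open points did not, and bars mark list medians. Glycolysis has 5 red points to the right with a median of 0.54, and the ATP synthase list has none with a median of 0.07.

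Among neuronal genes, the 2 Arc genes, which encode capsid-forming proteins derived from a retrotransposon and linked to synaptic activity, both rose. Arc1, at its bright probe set, had 7841, 12035 and 10113 in the ATPsynCf6-labelled arrays, against 3215, 2613 and 4122 in control, and Arc2 had 796, 701 and 816, against 172, 192 and 386 in control. The groups were well separated for both. Arc1 rose by 1.73 (SE 0.17, adjusted p = 2.13e-06), Arc2 by 1.98 (SE 0.15, adjusted p = 9.49e-08), and a dim second probe set of Arc1 by 1.80. Both passed in the 10 arrays, and neither without control 1 or control 2, where Arc2 was at 1.44 and 1.51.

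Snap24, a SNAP-25-like SNARE of membrane fusion, had the largest fall. It had 116, 105 and 116 in the ATPsynCf6-labelled arrays, against 1346, 968 and 239 in control, so control 3 was nearer to the ATPsynCf6-labelled arrays than the other controls were. The fall was 3.18 (SE 0.25, adjusted p = 1.75e-07). Syn, synapsin, which tethers synaptic vesicles, had 1457, 1589 and 1796, against 648, 898 and 327 in control, a rise of 1.15 (SE 0.20, adjusted p = 0.00115). Syt7, a synaptotagmin, fell by 0.59 (SE 0.12, adjusted p = 0.00413), with 1927, 1737 and 1936 against 2886, 2620 and 3772 in control. These 3 were the only members of 21 in the SNARE and vesicle list that passed, and the list's median was -0.02. None of the 3 passed without control 1, where Snap24 was at -1.97, or without control 2, where it was at -2.20.

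KaiR1D, a kainate-type glutamate receptor, had 194, 193 and 194 in the ATPsynCf6-labelled arrays, against 1434, 1316 and 388 in control. The ATPsynCf6-labelled arrays were nearly equal and all lay below the lowest control. The fall was 2.70 (SE 0.16, adjusted p = 5.61e-09). GluRIA, an AMPA-type glutamate receptor, fell by 0.81 (SE 0.19, adjusted p = 0.0134) and overlapped, with 355, 417 and 406 against 817, 592 and 261 in control. It was at 0.00 without control 1 and -0.23 without control 2, and KaiR1D was at -1.80 and -1.86, past the threshold in neither. The other 14 of 16 measured receptor genes did not pass, and the median was -0.12. None passed among 17 voltage-gated channel genes (median -0.01), where SLO2, a potassium channel, was at -0.72 (adjusted p = 0.0613), or among 15 genes of transmitter synthesis and transport (median 0.08).

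Of 29 measured neuropeptides and peptide hormones, 2 rose and 0 fell, and the median was 0.14. AstC, allatostatin C, had 2862, 3508 and 4555, against 1457, 2171 and 1289 in control, a rise of 1.10 (SE 0.19, adjusted p = 0.00109). ETH, ecdysis triggering hormone, rose by 0.53 (SE 0.13, adjusted p = 0.0186), with 235, 259 and 231 against 150, 184 and 143 in control. Trissin, a neuropeptide outside that list, was among the largest falls. It had 299, 206 and 180, against 523, 660 and 1041 in control, a fall of 1.34 (SE 0.18, adjusted p = 0.000139). The groups did not overlap in these 3 genes, and none of them passed without control 1 or control 2. The list's median turned to -0.38 without control 1 and -0.26 without control 2.

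Of 8 genes of ecdysone synthesis, 2 fell, 0 rose and the median was -0.38. The steroid ecdysone is made in the ring gland, which lies on the larval brain. The P450 gene spok had 122, 42.6 and 25.3 in the ATPsynCf6-labelled arrays, against 147, 299 and 332 in control (-1.68, SE 0.37, adjusted p = 0.00889), and the P450 gene sad had 114, 41.8 and 22.8, against 136, 357 and 1329 in control (-1.82, SE 0.47, adjusted p = 0.0228). Both varied within each group more than most genes named here, and ATPsynCf6-labelled array 1 and control 1 lay close together. Neither passed in the 10 arrays (adjusted p = 0.12 for spok and 0.0981 for sad), and neither without control 1 or control 2, where the list's median was -1.08 and -0.63. The summed signal of 5 ring gland markers, which include both genes, was 601 to 1068 in the ATPsynCf6-labelled arrays and 839 to 3268 in control. The part that the amount of ring gland tissue in each dissection has in these values was not tested.

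In the ecdysone response list, 3 of 17 members rose and 3 fell. EcR, the ecdysone receptor, had 664, 638 and 700, against 430, 507 and 597 in control, a rise of 0.52 (SE 0.13, adjusted p = 0.0154). Hr3, a nuclear receptor induced by ecdysone, rose by 0.71 (SE 0.20, adjusted p = 0.0397), and MsrA, methionine sulfoxide reductase, by 0.79 (adjusted p = 0.0138) with overlap. Blimp-1, a transcription factor, fell by 1.09 (SE 0.21, adjusted p = 0.00349), and all its ATPsynCf6-labelled arrays were below their median signals. The remaining falls, Hr4 (-0.78, adjusted p = 0.0428) and ImpE1 (-0.70, adjusted p = 0.0467), were added after their values were seen, and both overlapped with control 3. In the 10 arrays 2 rose and 1 fell. Without control 1 or control 2 no member passed.

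Other large rises came from genes of varied or unknown function. PH4alphaSG1, a prolyl 4-hydroxylase subunit, had 106, 120 and 50.2 in the ATPsynCf6-labelled arrays, against 1.24, 2.35 and 14.6 in control. It was over the array median in no other array of the series, so it was tested only because it is high there, and no p is given for it. CG5079 had 212, 205 and 241, against 26.5, 29.1 and 15.9 in control (2.45, SE 0.13). Oseg2, of the intraflagellar transport that builds cilia, had 84.6, 132 and 124, against 9.76, 9.95 and 4.53 in control (2.33, SE 0.19). In all 3 genes the controls were below their medians, which makes the sizes inexact. The adjusted p was 2.06e-09 for CG5079 and 1.78e-07 for Oseg2.

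CG5079 also passed without any single array, whereas Oseg2 did not pass without control 1 or control 2. CG15731 (2.23), CG31157 (2.21), CG18095 (2.17), CG6834 (1.82) and CG4630 (1.81) had no role given here, and MFS9, a transporter of the major facilitator superfamily, rose by 1.97. MFS9 had 1458, 1099 and 1246, against 214, 502 and 922 in control, and was at 0.85 without control 1. In the list of intraflagellar transport genes, Oseg2 rose while IFT20 fell by 1.00 (SE 0.15, adjusted p = 0.000465) and Oseg6 by 0.62 (SE 0.14, adjusted p = 0.0102), out of 12 measured with a median of 0.05.

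Among the larger falls, botv, a glycosyltransferase of heparan sulfate synthesis, had 239, 223 and 208 in the ATPsynCf6-labelled arrays, against 812, 829 and 557 in control. The spread was small in both groups, and the fall was 1.80 (SE 0.14, adjusted p = 1.78e-07). Arpc1, a subunit of the Arp2/3 complex that branches actin filaments, had 430, 395 and 391, against 1137, 937 and 1735 in control, a fall of 1.37 (SE 0.16, adjusted p = 2.16e-05). Without control 1, botv was at -1.55 and Arpc1 at -1.62, and without control 2 they were at -1.53 and -1.76, with neither past the threshold. CG6912 fell by 2.51, with 70.5, 94.9 and 95.8 against 552, 643 and 278 in control.

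The other genes among the 15 largest falls were CG15919 (-2.32), CG18545 (-2.19), CG11349 (-2.08), CG5171 (-1.65), Phyhd1 (-1.51) and stops (-1.32). Phyhd1 resembles phytanoyl-CoA dioxygenases, and stops is known from photoreceptors. CG15919 had 62.1, 41.7 and 21.6, against 241, 237 and 2038 in control, where control 3 was far above the others. The ATPsynCf6-labelled arrays of CG18545, at 14.3, 2.17 and 21.9, were below their median signals, so that its fall has no exact size. Probe sets with no gene or with several genes listed also changed, and the 3 largest of their rises were 3.45, 3.12 and 2.96.

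Genes of cell death, growth and identity were read beside all genes, of which 3.76% rose and 2.73% fell by the test. Single calls in the lists that follow are near that share. The cell death gene grim had 640, 540 and 849 in the ATPsynCf6-labelled arrays, against 326, 319 and 279 in control, a rise of 1.02 (SE 0.19, adjusted p = 0.00211) with no overlap. It was the 1 of 13 cell death and JNK genes that passed. Of 22 genes of neuroblast identity, erm, a factor of intermediate neural progenitors, was the 1 that fell (-0.85, adjusted p = 0.00745), with 628, 521 and 593 against 1084, 1092 and 256 in control. It overlapped, and it was at 0.11 both without control 1 and without control 2. Of 23 cell cycle genes, twe, a Cdc25 phosphatase, rose (0.47, adjusted p = 0.0496), and the median was 0.03. Without control 1 and without control 2, the median was 0.43 and 0.47 for the cell cycle genes, and 0.46 and 0.52 for neuroblast identity, against 0.12 with all arrays. None passed among 19 cytosolic aminoacyl-tRNA synthetases (median 0.19), 37 cytosolic ribosomal proteins (median 0.17), 28 proteasome subunits (median -0.14), 15 subunits of the vacuolar proton pump (median 0.02) or 6 immune genes. The antimicrobial peptide gene Drs had 685, 64.7 and 3.23, against 3.19, 7.07 and 37.1 in control (adjusted p = 0.137).

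Cell type markers were read beside these results. Neuron markers were present and did not pass: 0 of 11 were called, their median was 0.03, and their summed signal was 22481 to 26660 in the ATPsynCf6-labelled arrays and 12785 to 27569 in control. Their median was 0.38 without control 1, 0.49 without control 2 and 0.28 without array weights. The gene nSyb, whose promoter drives Gal4 here, was at -0.46 (adjusted p = 0.0747). Of 15 glia markers, nrv2, a subunit of the sodium pump, rose by 0.43 (SE 0.12, adjusted p = 0.0395), and the median was -0.00. Of 5 neuroblast markers 0 passed (median 0.16). The summed signal of 8 salivary gland markers was 1021 to 1773 in the ATPsynCf6-labelled arrays and 913 to 12729 in control, and the highest control value came with signals of 2902 for Sgs3 and 4574 for Sgs8 in control 3. No salivary marker passed (median -0.02), and the median was -1.57 without control 1 and -1.04 without control 2.

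Of 7 fat body markers, Desat1, a fatty acid desaturase that many tissues use, rose by 0.57 (SE 0.12, adjusted p = 0.00482), all 7 were above 0 and the median was 0.43. Their summed signal was 11279 to 15684 in the ATPsynCf6-labelled arrays and 8632 to 10564 in control. Fat body is a main site of Pepck1 and sugar storage enzymes, and the part of fat body RNA in their values was not tested. Lsp2, a defining fat body storage protein gene, varied within both groups, with 3812, 721 and 366 against 238, 323 and 1429 in control (1.66, adjusted p = 0.074). Gnmt and Drs, given above, followed the same order of arrays within each group as Lsp2. The part of fat body RNA in their values was not tested. Of 11 muscle markers 0 passed (median 0.21), of 9 hemocyte markers 0 (median 0.02), of 6 trachea markers 0 (median -0.01) and of 8 imaginal disc markers 0 (median -0.09). Of 3 gut and Malpighian tubule markers, Irk3, a potassium channel, rose by 0.62 (adjusted p = 0.036) with overlap, at 375, 413 and 321 against 188, 323 and 281 in control.

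A second test set the ATPsynCf6-labelled arrays against the mean of the ND-75, UQCR-14 and COX5B RNAi groups and took no level from the control arrays. The targets of those groups were also not called lower against control by limma. ND-75 had 305, 195 and 194 in ND-75 RNAi, against 335, 387 and 304 in control (-0.41, adjusted p = 0.444). UQCR-14 had 7835, 6321 and 30487 in UQCR-14 RNAi, against 7959, 6616 and 20967 in control (-0.13, adjusted p = 0.863). COX5B had 989, 1958 and 7716 in COX5B RNAi, against 2725, 2952 and 8404 in control (-0.14, adjusted p = 1.00). All 3 groups overlapped with control, and they too are named by their labels. In it, 183 of 10340 probe sets passed (1.77%), 112 higher (1.08%) and 71 lower (0.687%) in the ATPsynCf6-labelled arrays. The split moved with the scaling: 61.2% of calls were higher in the deposited scaling, against 51.3% of 302 after median centring and 51.2% of 1303 after quantile normalization. The count was 0 without COX5B RNAi array 2 or 3 (872 and 802 at an unadjusted p under 0.05), 3 without UQCR-14 RNAi array 1 or 2, 34 and 51 without ND-75 RNAi array 1 or 2, 56 without COX5B RNAi array 1, and 90 without ATPsynCf6 RNAi array 2. It was 313 without UQCR-14 RNAi array 3 and 287 without control 1, which enters through the shared variance. It was 1 without array weights and 423 in the 10 arrays. The ratio of the 3' to the 5' actin probe sets, which is high in degraded RNA, was 4.04 to 4.80 in the ATPsynCf6-labelled arrays, against 37.4 and 20.1 in ND-75 RNAi arrays 2 and 3 and 70.1 in COX5B RNAi array 1. Of the 5 arrays with a low upper quartile, the other RNAi groups held 4, and the part of RNA quality in this comparison was not tested. The groups also differ in RNAi line, so gene target and line cannot be told apart.

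Pepck1 stood out in this test. It had 369, 391 and 491 in the ATPsynCf6-labelled arrays, against 126, 121 and 98.7 in ND-75 RNAi, 70.6, 114 and 84.1 in UQCR-14 RNAi and 22.8, 68.6 and 31.1 in COX5B RNAi. All 3 lay above all 9. The difference was 2.05 (SE 0.19, adjusted p = 3.51e-05), and against control the other groups were at 0.04, -0.24 and -0.88, none past the threshold. PH4alphaSG1 had 106, 120 and 50.2 in the ATPsynCf6-labelled arrays, against 1.27 to 35.8 in the 9 other RNAi arrays, all below their medians, which is a description only.

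Hsc70-2 was higher in the ATPsynCf6-labelled arrays than in the other RNAi groups by 1.60 (SE 0.19, adjusted p = 0.00015), though it was high in several groups. It had 575, 493 and 484, against 51.5, 13.9 and 42.4 in ND-75 RNAi, 479, 424 and 467 in UQCR-14 RNAi and 36.2, 215 and 188 in COX5B RNAi. The UQCR-14 RNAi arrays were thus only just below. Hex-A differed by 0.75 (SE 0.15, adjusted p = 0.0131) and Pgi by 0.57 (SE 0.14, adjusted p = 0.0373), with all 3 ATPsynCf6-labelled arrays above all 9 others for both. CG15784, Arc2 and GstD2 did not pass here, at 0.02, 0.02 and -0.12. Tret1-1 was at 0.40 (adjusted p = 0.444).

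Genes lower in the ATPsynCf6-labelled arrays than in the other RNAi groups included botv and KaiR1D. The signals of botv were 239, 223 and 208, against 906, 742 and 387 in ND-75 RNAi, 1063, 770 and 425 in UQCR-14 RNAi and 841, 313 and 164 in COX5B RNAi. A single COX5B RNAi array was lower, and the difference was -1.32 (SE 0.15, adjusted p = 9.36e-05). Against control, botv was at 0.01 in the ND-75 group, 0.05 in the UQCR-14 group and -1.50 in the COX5B group (limma, adjusted p = 0.0513). KaiR1D had 194, 193 and 194, against 1250, 1537 and 954 in ND-75 RNAi, 408, 374 and 56.9 in UQCR-14 RNAi and 416, 222 and 104 in COX5B RNAi. The difference of -1.17 (SE 0.17, adjusted p = 0.00135) stood beside changes against control of -0.04 for the ND-75 group, -1.81 for the UQCR-14 group and -2.72 for the COX5B group. CG5171 was below all 9 others (-1.28, SE 0.23, adjusted p = 0.00894).

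Zip102B, a zinc transporter, showed a split among the groups. Against control it rose by 1.44 (SE 0.18, adjusted p = 4.45e-05) in the ATPsynCf6-labelled arrays, with 606, 633 and 759 against 190, 319 and 394 in control. It had 719, 610 and 556 in ND-75 RNAi, 698, 656 and 457 in COX5B RNAi, and 32.0, 14.8 and 70.2 in UQCR-14 RNAi. The UQCR-14 RNAi arrays lay below all 3 controls, while those of the other RNAi groups overlapped with the ATPsynCf6-labelled arrays. The difference from the mean of the other groups was 1.45 (adjusted p = 0.000297). The pigment gene y, also a marker in fly stocks, rose by 0.85 against control (adjusted p = 0.00202), with 117, 136 and 118 against 61.1, 63.1 and 54.1 in control, and it reached 1723, 1720 and 947 in ND-75 RNAi. In UQCR-14 and COX5B RNAi, y was at 1.07 and 1.00 against control.

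**Figure D4:**
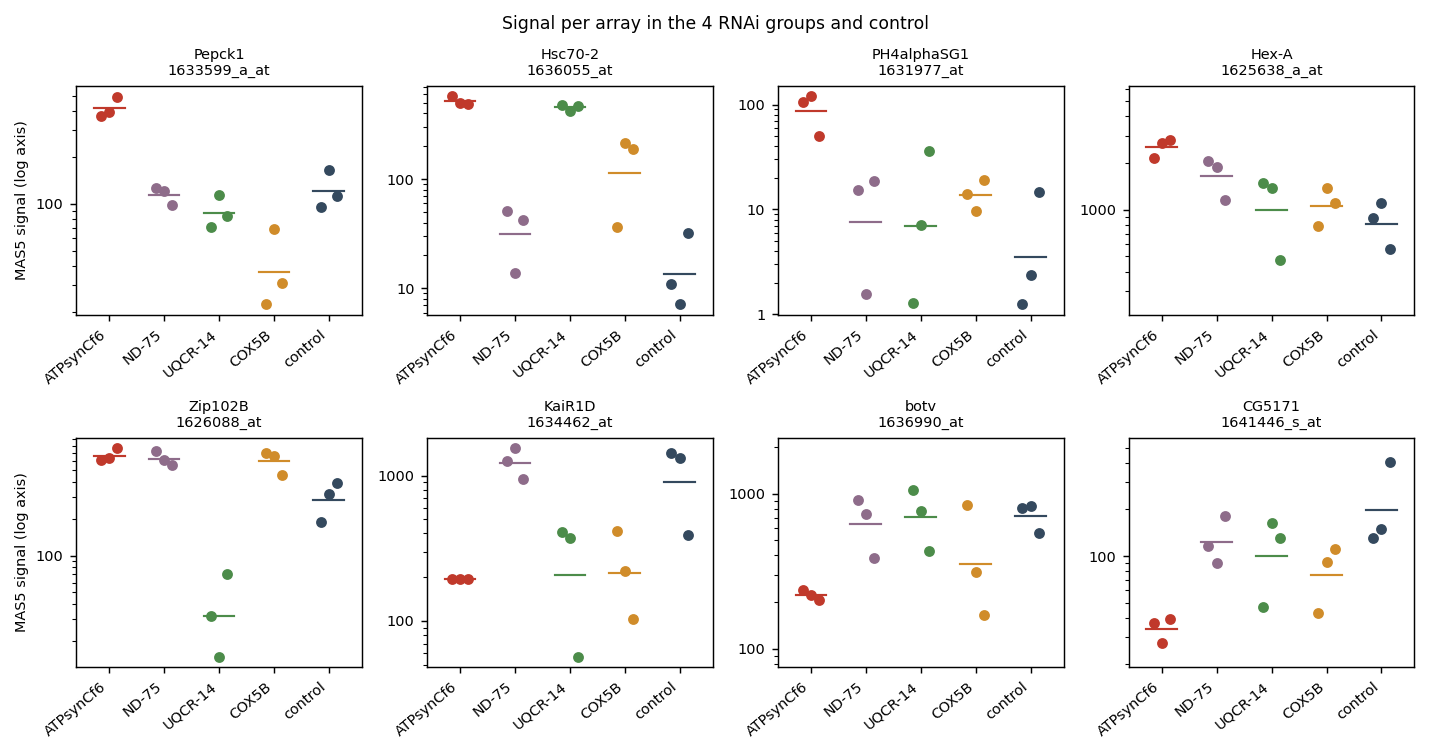
MAS5 signal (log axes, a separate range for each gene) of 8 genes in the 4 RNAi groups and control, 3 arrays each; points run from array 1 to 3 and lines are geometric means. Pepck1 is highest in the 3 arrays labelled ATPsynCf6 RNAi (369 to 491), and Zip102B is lowest in UQCR-14 RNAi (14.8 to 70.2).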

How the data were processed

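The deposited values are MAS5 intensities on a linear scale, and the authors' scaling was kept. MAS5, Affymetrix Expression Console and, besides them, Transcriptome Analysis Console are named without versions, per the submitters' processing notes. The 183 array control probe sets were set aside from 18952. Deposited signals were turned into log2(signal + 16). One limma (version 3.58.1, R 4.3.3) model of 5 group means over 15 arrays used array weights and an intensity trend; the weight algorithm stopped before its convergence tolerance. Tests were two-sided, adjusted by Benjamini-Hochberg over 10340 probe sets, at 0.05. With 3 arrays a group, the smallest p of an exact permutation test is 0.1, and no such test was made. Nothing in the labels says that arrays of a group came from separate crosses, so p-values measure only the spread between these samples. Probe sets were named from the array's annotation, as 13647 had 1 gene, 402 several and 4720 none listed; those ending in _s_at can match several transcripts or genes. Of 850 list symbols, 706 matched, and a gene took its brightest tested probe set. Named are the 15 largest rises and 15 largest falls without overlap and with 1 gene, 5 each way for the second test, up to 4 called members of a list by smallest p, and 2 where none was called. The members, lists and rules were chosen with earlier results of these data known. The number of arrays and the distance of a signal from background limit the precision, and detection calls were not used here. Alternatives were other scalings, pseudocounts, filters and weights, a replicate block, and leaving out arrays.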

Additional observations from a re-analysis of the deposited data

Results flagged for a closer look

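These genes differed between the arrays labelled ATPsynCf6 RNAi and the mean of the other 3 RNAi groups by the test of that difference itself (limma, adjusted p under 0.05). The differences are log2 values, ATPsynCf6 RNAi minus the other groups. Those described above were Hsc70-2 (1.60), Pepck1 (2.05), Hex-A (0.75), Pgi (0.57), KaiR1D (-1.17), botv (-1.32), CG5171 (-1.28), Zip102B (1.45) and y (-1.33). Against control, y was at 0.85 in the ATPsynCf6-labelled arrays and at 4.44, 1.07 and 1.00 in ND-75, UQCR-14 and COX5B RNAi. Its difference therefore came from the ND-75 group. PH4alphaSG1 (2.02) was tested only through the arrays where it is high, so its value is a description and no test result. Of the genes with the largest changes against control, CG5079 (1.17), CG31157 (0.93), CG18095 (0.90), MFS9 (1.60), CG6834 (1.32) and CG4630 (0.74) were higher and stops (-0.62) was lower. Against control in ND-75, UQCR-14 and COX5B RNAi, CG18095 was at -0.01, 1.90 and 1.90. In the same order, CG31157 was at 0.46, 1.96 and 1.41, and stops at 0.14, -1.04 and -1.20. In each of these the ND-75 group lay furthest from the ATPsynCf6-labelled arrays. The others were at 1.25 to 1.32 (CG5079), -0.52 to 0.94 (MFS9), 0.10 to 1.21 (CG6834) and 0.94 to 1.23 (CG4630). Members of lists that differed were D2hgdh (0.78), Syt7 (-0.62), ZnT41F, a zinc exporter (-0.59), and RpS19b, a ribosomal protein gene (-0.85). Against control, Syt7 was at -0.59 both in the ATPsynCf6-labelled arrays and in ND-75 RNAi. It was at 0.16 in UQCR-14 RNAi and 0.54 in COX5B RNAi.

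Some genes differed from the other RNAi groups with no overlap of the 3 and 9 arrays. CG10226 was higher by 1.94, with 175, 190 and 229 in the ATPsynCf6-labelled arrays against 6.52 to 81.5 in the others, and Oatp33Ea, an organic anion transporter, was higher by 1.40. CG12310 (-1.78), asRNA:CR42871 (-1.04), Whamy, of the WASP family of actin regulators (-0.88), and a dim probe set of hts, the fly adducin (-0.72), were lower. Whamy and this hts probe set were over the array median only in other RNAi arrays, and PH4alphaSG1 only in the ATPsynCf6-labelled arrays, so these 3 were tested through the groups where they are high, and their values are descriptions. Of these 6 probe sets, only that of CG10226 also passed against control (1.07, adjusted p = 0.0212). It was at 0.89 in the 10 arrays (adjusted p = 0.262) and 0.90 without control 3 (adjusted p = 0.0521), both by limma. A brighter probe set of hts was at -0.60 against control (limma, adjusted p = 0.049) with overlap, and the remaining hts probe sets did not pass. The antisense transcript overlaps another gene's locus, and whether its signal is separate from that gene's was not tested. All these calls share the dependence on single arrays of the other RNAi groups given above.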

How the results depend on the processing

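Against control, 715 probe sets passed. The count was 2 without array weights, 3 without weights and without control 3, 333 in the 10 arrays, 65 and 165 in those without control 1 and control 2, and 234 without a filter. Leaving out 1 array gave 5 to 938 calls. Against the mean of the other RNAi groups, 183 passed. The count was 1 without array weights (also without control 3), 423 in the 10 arrays, 382 and 383 in those without control 1 and control 2, 302 after median centring, 1303 after quantile normalization, 299 with a pseudocount of 64, and 104 with array weights by the gene-by-gene algorithm, which called 545 against control. Leaving out 1 array gave 0 to 313 calls. Same-numbered arrays of ATPsynCf6 RNAi and control deviated from their group means with correlations of -0.362, 0.149 and -0.152. The numbers were therefore not taken as pairs of these groups. Array 3 had a low upper quartile in control (468), ND-75 RNAi (485), UQCR-14 RNAi (360) and COX5B RNAi (481), but not in ATPsynCf6 RNAi (597). What arrays of the same number share was not tested. With the replicate block, 285 passed against control with weights and 4 without; against the other RNAi groups, the block gave 146 with weights and 1 without. The remaining alternatives, which were the 6 arrays alone, other pseudocounts and filters and no trend, moved each count by less than 1.5 times. The cause of these changes was not tested, beyond the fewer arrays or the added probe sets that define a setting.

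For the 80 probe sets chosen by the naming rule and called against control, 31 alternatives gave 2478 values. Of these values, 1796 kept direction and call, 675 kept direction only and 7 reversed. The 80 were chosen because they passed. The alternatives that left out an array of the other RNAi groups reach this comparison only through the weights and the shared variance. The count of values that kept their call was thus in part fixed in advance. The reversals came without control 1 or control 2: Glut1 (0.02 and 0.13), Tspo (-0.21 and -0.17), erm (0.11 and 0.11) and GluRIA (0.0016, without control 1). In those fits control 3 entered the control level almost equally with the other control left. Over all fits that left out 1 array, Glut1 was at -1.03 to 0.13, Tspo at -0.21 to 0.73, erm at -0.90 to 0.11 and GluRIA at -0.86 to 0.0016. Of the 80, 57 passed in the 10 arrays and 55 with the block and weights. The targeted gene did not pass in any setting. The settings that leave control 1 or 2 out of the 10 arrays, the one without weights and control 3, and the gene-by-gene weights were chosen after seeing the data. Signals below an array's median give changes of no exact size.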
